A study of Mus musculus with 59 samples.

Results

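The genes described here are Ighm, Igkc, Jchain, Cd79a, Cd79b, Ms4a1 and Mzb1, which B cells and the plasma cells that arise from them use to build, carry or secrete antibody. They were taken by symbol from the deposited expression table, in which all 7 were found among 47643 gene rows. The table covers 59 muscle samples of female NCI Ath/nude mice aged 4 months, each carrying a human melanoma xenograft that was either cachectic (causing muscle wasting) or non-cachectic. The study asked whether recombinant Fibcd1 (rFibcd1), a muscle-secreted protein, protects the diaphragm from this wasting. Diaphragm samples came from mice with the cachectic melanoma after mock (n = 10) or rFibcd1 (n = 10) injections and from mice with the non-cachectic melanoma after mock (n = 9) or rFibcd1 (n = 10) injections. Tibialis anterior (TA), a fast limb muscle, and soleus (SOL), a slow one, each came from 5 mice with the cachectic and 5 with the non-cachectic melanoma, with no injection named in their labels. The limb libraries carry numbers that mock-injected diaphragm libraries of the same melanoma also carry, but no label states that a number marks one mouse, so the injections of the limb donors are not known from the labels. No tumour-free group was used here.

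An antibody is built of paired heavy and light chains. Each chain joins a variable segment, of which the genome holds many, to a constant region, and a B cell first makes the mu heavy chain encoded by Ighm before it may switch to the gamma, alpha or epsilon constant regions. Cd79a and Cd79b form the signalling unit of the B cell receptor, Ms4a1 encodes the surface protein CD20, Jchain links secreted IgM and IgA into polymers, and Mzb1 is a chaperone of the endoplasmic reticulum that assists antibody assembly. Athymic nude mice carry a defect of Foxn1, the thymus transcription factor, and lack a normal supply of T cells but keep B cells. Foxn1 was listed at 0 TPM in all 59 libraries, as skeletal muscle does not normally express it, so its level does not test the strain. TPM is a length-corrected abundance, so levels of different genes can be compared.

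On the GRCm38 genome (GENCODE vM21), Ighm lies on chromosome 12 from 113418558 to 113422730 and Igkc, the kappa light chain constant region, on chromosome 6 from 70726435 to 70726966. Jchain lies on chromosome 5 (88519809 to 88527891), Cd79a on chromosome 7 (24897381 to 24902197), Cd79b on chromosome 11 (106311341 to 106314762) and Ms4a1 on chromosome 19 (11249675 to 11266241). The results turn on the Ighm and Igkc constant regions, whose first 90 coding bases are shown because these exons are common to all mu or all kappa chains, whatever the variable segment. They were read 5′ to 3′ from the exons at chr12:113422641-113422730 on the minus strand and chr6:70726435-70726524 on the plus strand.
Ighm constant region: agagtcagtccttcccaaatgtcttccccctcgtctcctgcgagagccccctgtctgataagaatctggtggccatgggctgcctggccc
Igkc constant region: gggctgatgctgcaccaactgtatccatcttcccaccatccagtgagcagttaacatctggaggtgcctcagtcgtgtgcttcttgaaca
Of the stretches of 31 bases in the annotated transcripts, 0 of 1856 in Ighm, 0 of 502 in Igkc and 0 of 1401 in Cd79b were found in another gene's transcripts. The share was 0.288% for Jchain, 2.34% for Ms4a1, 12.2% for Cd79a (all with Gm32220) and 55.1% for Mzb1 (with SPATA24, which overlaps it), so Mzb1 values in particular may hold reads of a neighbour. Igkc overlaps Gm30211 and Ms4a1 overlaps 4930526L06Rik, and how the counting treated strand is not given in the sources used here.

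Promoter sequence (RefSeq, GRCm38.p6) was at hand for 2 of the 7 genes, Cd79a and Jchain. The 250 bases before the start site were searched on both strands for the octamer ATGCAAAT (bound by Oct proteins), the palindromic EBF motif and the Ets motif CAGGAAGT, which are letters known from B-cell promoters. The Cd79a window held 1 match, an Ets motif 56 to 49 bases before the start, and the Jchain window held 0. The match is shown in capitals within chr7:24897430-24897459 (plus strand). The start site used here is that of the RefSeq entry. The stretch shown lies inside the GENCODE span of Cd79a, which begins at 24897381, so the match is not upstream of that start.
Cd79a promoter: gcacggctgaaCAGGAAGTgaggcggagtt
Among 32851 promoters of the same length, the Ets motif occurred in 2.69%, the octamer in 1.60% and the EBF motif in 0.779%. A match describes the letters in the window and was not tested as a binding site.

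Each column of TPM sums to the same total, so the sequencing depth behind each value is unknown and no counting interval was computed. Between 17950 and 19456 genes were above 0 in the diaphragm libraries, 16436 to 17673 in TA and 17514 to 18191 in SOL. A pseudogene, Pcna-ps2, is near 0 in part of the libraries and marks a split that runs through the data. In the diaphragm 26 libraries exceeded 1 TPM of Pcna-ps2 (high state) and 13 did not (low state), and the low ones were 6 of 9 non-cachectic mock, 1 of 10 cachectic mock, 4 of 10 non-cachectic rFibcd1 and 2 of 10 cachectic rFibcd1 samples. In TA and SOL the state coincided with the melanoma, so state and melanoma cannot be told apart there.

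The B-cell genes differed widely from one diaphragm to the next, and far more than between the labelled groups. Ighm was present in every diaphragm library, with the lowest at 12.6, the median at 74.2 and the highest at 2895 TPM (n = 39). Igkc spanned 3.50 to 4137 TPM with a median of 112 TPM. The highest library exceeded the lowest 229-fold for Ighm, 1181-fold for Igkc, 2795-fold for Jchain, 254-fold for Cd79a, 171-fold for Cd79b, 398-fold for Ms4a1 and 56.2-fold for Mzb1. In a bulk sample, fewer B cells and less RNA per B cell cannot be told apart.

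**Figure D1:**
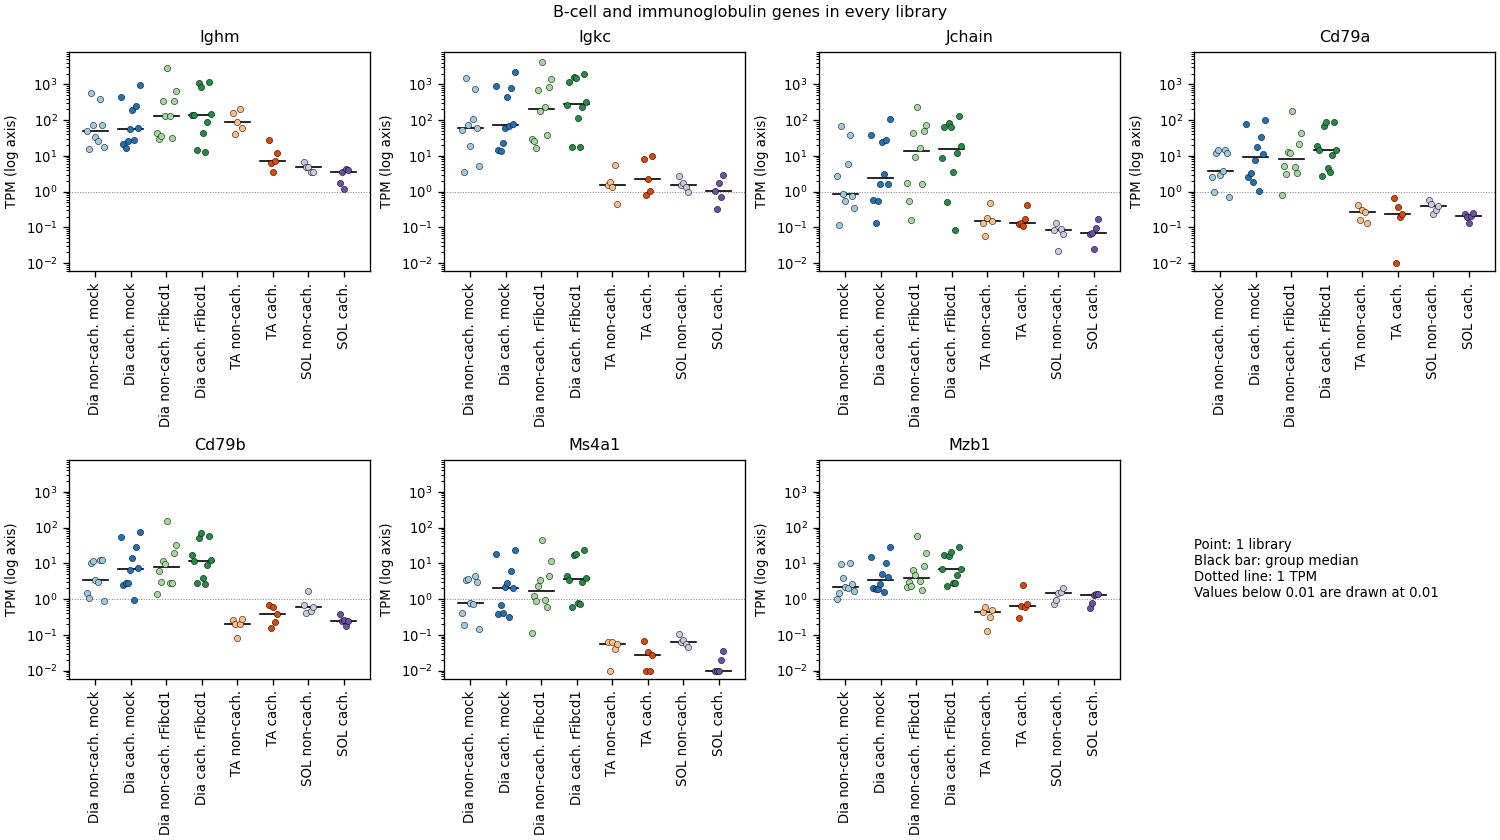
TPM (log axis) of each of the 7 genes in every library, by muscle (Dia, diaphragm; TA; SOL), melanoma and injection; points are libraries, black bars group medians, the dotted line is 1 TPM, and values below 0.01 are drawn at 0.01. The 4 diaphragm groups are each widely spread and overlap for every gene, and all limb libraries lie at or below 1.64 TPM for Jchain, Cd79a, Cd79b and Ms4a1.

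For the heavy chain Ighm, the lowest, median and highest values were 15.7, 51.1 and 589 TPM in the non-cachectic mock diaphragm and 16.2, 58.0 and 944 TPM in the cachectic mock diaphragm. With rFibcd1 they were 29.2, 129 and 2895 TPM in non-cachectic and 12.6, 136 and 1123 TPM in cachectic mice. All 4 groups overlapped over nearly their whole ranges. The light chain Igkc was at 3.50, 59.1 and 1475 TPM in non-cachectic mock, 13.6, 70.7 and 2147 TPM in cachectic mock, 16.5, 207 and 4137 TPM in non-cachectic rFibcd1 and 17.1, 287 and 1970 TPM in cachectic rFibcd1 libraries. The rFibcd1 groups had the higher medians for both chains, but each also held libraries among the lowest.

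The remaining 5 genes had their lowest group median in the non-cachectic mock and their highest in the cachectic rFibcd1 diaphragm. Jchain, the polymer-forming chain, was at 0.114, 0.853 and 69.7 TPM in non-cachectic mock, 0.132, 2.42 and 106 TPM in cachectic mock, 0.165, 13.3 and 235 TPM in non-cachectic rFibcd1 and 0.0842, 15.5 and 132 TPM in cachectic rFibcd1 libraries. The receptor subunit Cd79a was at 0.719, 3.85 and 15.0 TPM in non-cachectic mock, 1.06, 9.42 and 101 TPM in cachectic mock, 0.796, 8.40 and 183 TPM in non-cachectic rFibcd1 and 2.77, 14.4 and 90.5 TPM in cachectic rFibcd1 libraries. Both genes had higher medians with the cachectic melanoma under either injection and with rFibcd1 in either melanoma. The partner subunit Cd79b had medians of 3.51, 7.02, 7.82 and 11.97 TPM and the surface protein gene Ms4a1 had medians of 0.796, 2.05, 1.73 and 3.61 TPM, in the same order of groups. The chaperone gene Mzb1 (GRCm38 chromosome 18, 35647267 to 35649367) had medians of 2.19, 3.47, 3.88 and 6.98 TPM. Highest values in the non-cachectic mock group were 12.3 TPM for Cd79b, 4.43 TPM for Ms4a1 and 10.1 TPM for Mzb1, below the highest library of each other group, and the ranges of all 4 groups overlapped for each gene.

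High libraries occurred in every diaphragm group. Igkc reached 100 TPM in 21 of 39 libraries, 3 of 9 in the non-cachectic mock, 4 of 10 in the cachectic mock, 6 of 10 in the non-cachectic rFibcd1 and 8 of 10 in the cachectic rFibcd1 group, and it reached 1000 TPM in 8 libraries. A set of 6 libraries was among the highest 7 for all 7 genes: library 35 of the cachectic mock group, libraries 4, 5 and 17 of the cachectic rFibcd1 group and libraries 56 and 60 of the non-cachectic rFibcd1 group. Library 56 was the highest for each gene and held between 17.9% (Mzb1) and 25.1% (Ighm) of the sum over all diaphragm libraries. The non-cachectic mock group had none of these 6, although its library 63 reached 1475 TPM of Igkc.

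The 7 genes moved together across diaphragms. With each group's mean removed from log2(TPM + 1), Pearson correlations between pairs of them ranged from 0.817 to 0.992 with a median of 0.932 (21 pairs, 39 libraries). This is a description, since the genes share the same libraries. Over all 59 libraries with each group's mean removed, genes near Cd79a among 14159 included Cd79b (r = 0.987), Ms4a1 (0.984), Cd22 (0.983) and Spib (0.982), genes of the B-cell surface and a B-cell transcription factor. Those nearest to Igkc were Jchain (0.957), Iglc2 (0.939), Ighm (0.934), Igkv1-110 (0.922) and Igkv10-96 (0.912), the J chain, constant regions and kappa variable segments. Jchain had Igkc, Igkv1-110 (0.936), Ighv1-82 (0.923), Igkv10-96 (0.923) and Ighm (0.922) nearest to it. Ighm had Iglc3 (0.943), Igkc, Pou2af1 (0.926), Iglc2 (0.926) and Igkv1-110 nearest to it, where Pou2af1 is a B-cell coactivator. Mzb1, compared with the other 6 genes over the 39 diaphragm libraries, correlated most with Ms4a1 (0.950) and least with Igkc (0.894).

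**Figure D2:**
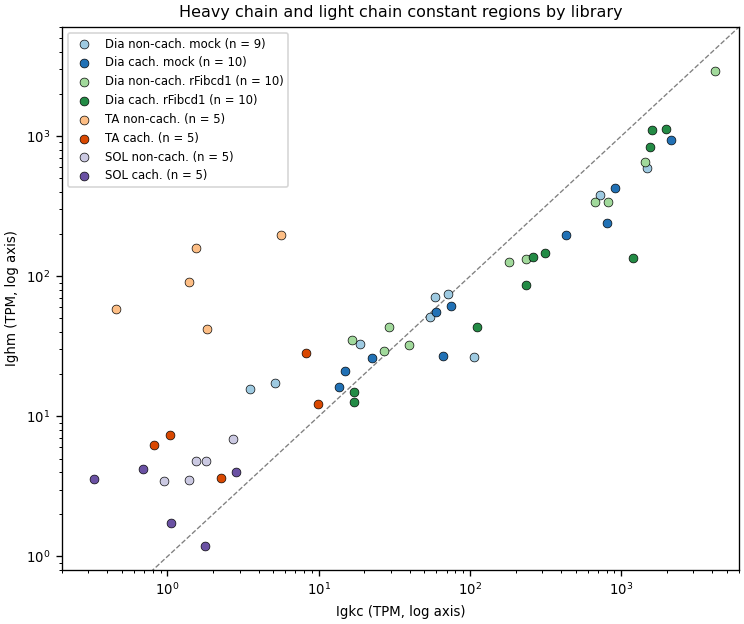
Ighm against Igkc in every library, both in TPM on log axes, coloured by group; the dashed line marks equal levels. Diaphragm libraries lie along the line from low to high, SOL libraries sit at the low end, and the 5 non-cachectic TA libraries stand far above the line, with Ighm at 42.1 to 198 TPM and Igkc at 0.457 to 5.65 TPM.

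The balance of the genes was compared as ratios within each library. Ighm over Igkc in the diaphragm ranged from 0.114 to 4.49 with a median of 0.698 (n = 39), from 0.114 to 3.36 (median 0.558) in the 26 high-state and from 0.390 to 4.49 (median 0.822) in the 13 low-state libraries. Jchain over Cd79a, a secretion gene over a receptor gene, ranged from 0.0239 to 5.81 with a median of 0.796. Cd79a over Cd79b stayed between 0.565 and 1.72 (median 1.17) in the diaphragm, so the receptor partners kept close to equal levels over their whole span while Jchain did not track Cd79a as tightly. The levels of receptor and secretion genes could thus part from each other in single diaphragms.

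**Figure D3:**
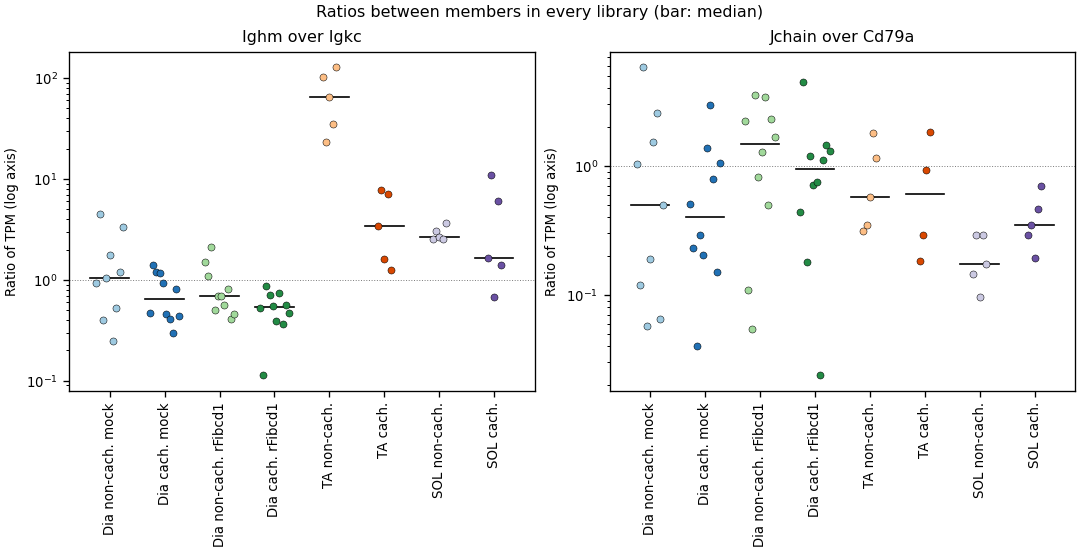
Ratio of TPM within each library (log axis) for Ighm over Igkc and Jchain over Cd79a, by group; points are libraries and bars are medians. The 5 non-cachectic TA libraries have an Ighm over Igkc ratio of 23.2 to 127, above every other library, where the highest is 11.0.

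The other antibody constant regions showed which classes were present. Ighm made up 27.2% to 98.6% (median 85.9%) of the summed heavy chain constant TPM in the diaphragm, and the gamma regions together made up 0.212% to 67.4% (median 4.35%). The lambda constant regions made up 2.45% to 27.6% (median 7.98%) of the light chain sum, with Iglc2 and Iglc3 sharing 19.6% and 40.8% of their 31-base stretches with other transcripts and so less certain. Most diaphragms therefore held mainly mu and kappa transcripts, with exceptions. Library 2 of the cachectic rFibcd1 group had 218 TPM of Ighg1 and 75.1 TPM of Ighg3 against 136 TPM of Ighm, with Igkc at 1194 TPM. Library 63 of the non-cachectic mock group had Igkc at a like level but 98.6% Ighm and only 5.06 TPM of Ighg1. Ighd, the delta region of resting B cells, reached 123 TPM in library 56, and Ighe, the epsilon region, was listed at 0 in 46 of 59 libraries.

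Variable segments were counted to see how many different antibodies a library held. In the diaphragm, 0 to 79 of 185 Ighv rows and 0 to 82 of 160 Igkv rows reached 1 TPM. Their sum ranged from 1.57 to 1910 TPM for Ighv and from 4.11 to 3908 TPM for Igkv. In the 19 libraries whose Igkv rows summed to 100 TPM or more, the leading segment took 7.08% to 57.6% (median 17.8%) of the sum and 22 to 82 segments reached 1 TPM. Igkv14-126 was the leading segment in 7 of these 19 libraries. High diaphragms thus listed many segments, although near-identical segments can exchange reads, so single segment values are uncertain.

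**Figure D4:**
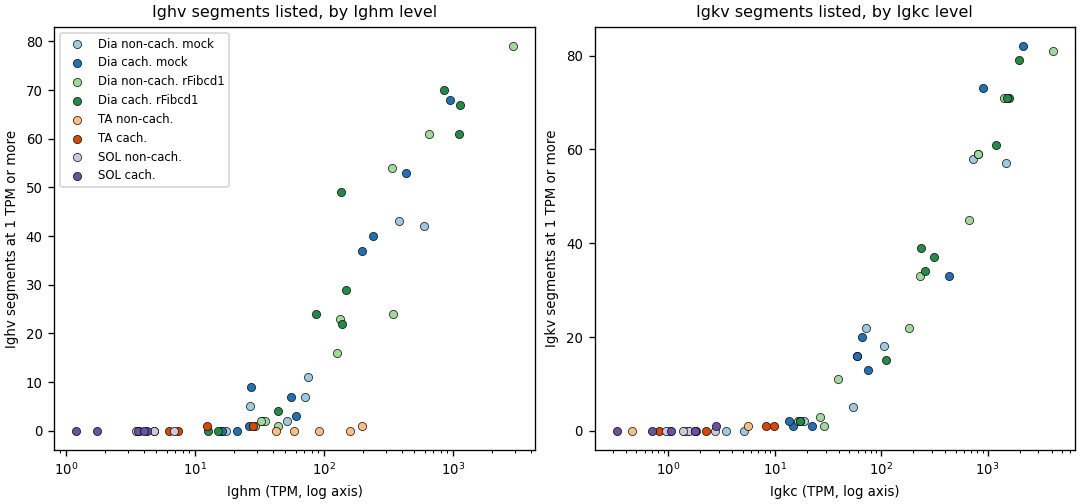
Number of Ighv (of 185) and Igkv (of 160) rows at 1 TPM or more in each library against its Ighm or Igkc level (TPM, log axis), by group. Segment numbers climb with the constant region in diaphragm libraries up to 79 and 82, while all limb libraries list 0 or 1, the non-cachectic TA libraries with 42.1 to 198 TPM of Ighm included.

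The first test asked whether the melanoma that causes wasting changed these genes in the mock-injected diaphragm. None of the 7 was called (limma on log2(TPM + 1), adjusted p under 0.05 over all genes), beside 33.5% of the 13426 genes tested, and 0 had an unadjusted p under 0.05 or were called by Dunn tests. The fitted difference (cachectic minus non-cachectic) was 0.41 for Ighm (SE 0.929, 95% interval -1.47 to 2.29, adjusted p = 0.745) and 1.02 for Igkc (SE 1.18, -1.37 to 3.41, adjusted p = 0.505). It was 0.67 for Jchain (interval -1.50 to 2.84), 0.97 for Cd79a (-0.62 to 2.56), 0.89 for Cd79b (-0.57 to 2.36), 0.63 for Ms4a1 (-0.65 to 1.91) and 0.53 for Mzb1 (-0.53 to 1.59), with adjusted p between 0.336 and 0.638. The intervals of all 7 genes include 0 and reach above 1.5 on the log2 scale, and those of Ighm, Igkc and Jchain also reach below -1.3. The median over the 7 genes was 0.67, beside 0.20 over all genes tested. Single libraries moved all 7 values. Without library 35 of the cachectic group the value was 0.02 for Ighm, 0.23 for Jchain, 0.62 for Cd79a, 0.57 for Cd79b, 0.33 for Ms4a1 and 0.27 for Mzb1. Without library 63 of the non-cachectic group it was 0.81 for Ighm, 1.59 for Igkc and 1.17 for Jchain, and without library 62 of that group it was 0.55 for Igkc. With library state as a term, the value was -0.40 for Ighm, 0.05 for Igkc, -0.27 for Jchain, 0.01 for Cd79a, -0.06 for Cd79b, -0.10 for Ms4a1 and -0.02 for Mzb1. In the high-state libraries alone (3 non-cachectic and 9 cachectic) it was 1.54 for Ighm, 2.01 for Igkc, 1.51 for Jchain, 1.58 for Cd79a, 1.40 for Cd79b, 1.05 for Ms4a1 and 1.02 for Mzb1, also without a call.

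In the rFibcd1-injected diaphragm the same melanoma comparison called 0 of the 7 genes, beside 9.11% of all genes, with 0 at an unadjusted p under 0.05 and 0 by Dunn tests. The value was -0.13 for Ighm (adjusted p = 0.947), 0.57 for Igkc (adjusted p = 0.800) and 0.64 for Cd79a (adjusted p = 0.640). Without library 56, in the non-cachectic group, the value was 0.35 for Ighm, 1.05 for Igkc and 1.09 for Cd79a. Without library 17 of the cachectic group it was -0.46 for Ighm, and without libraries 48 and 46 of the non-cachectic group, each in turn, it was 0.18 for Igkc and 0.35 for Cd79a. With library state as a term it was -0.41 for Ighm, 0.22 for Igkc and 0.31 for Cd79a.

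Injection of rFibcd1 was compared with mock within each melanoma. In cachectic mice 0 of the 7 genes were called, beside 0.0447% of all genes, with values of 0.70 for Ighm (adjusted p = 0.818), 1.18 for Igkc (interval -1.15 to 3.51, adjusted p = 0.744) and 0.60 for Cd79a (adjusted p = 0.814). In non-cachectic mice 0 were called, beside 0.417%, with values of 1.23 for Ighm (adjusted p = 0.407), 1.64 for Igkc (interval -0.75 to 4.03, adjusted p = 0.391) and 0.93 for Cd79a (adjusted p = 0.447). Single libraries moved these values. In cachectic mice Ighm was 0.36 without library 17 and 1.09 without library 35, Igkc was 0.83 without library 8 and 1.63 without library 35, and Cd79a was 0.32 without library 22 and 0.95 without library 35. In non-cachectic mice, leaving out library 56 gave 0.76 for Ighm, 1.15 for Igkc and 0.48 for Cd79a. With library state as a term the values were 0.84, 1.35 and 0.77 for Ighm, Igkc and Cd79a in cachectic mice and 0.85, 1.18 and 0.48 in non-cachectic mice. In the high-state libraries alone they were 1.14, 1.75 and 0.78 in cachectic mice and 3.21, 3.89 and 2.34 in non-cachectic mice, where 3 mock libraries remained, also without a call. The fitted values were above 0 for these genes in both melanomas, and the 2 comparisons have no samples in common, but neither passed the test and 0 of the 7 had an unadjusted p under 0.05 or were called by Dunn tests in either. The median over the 7 genes was 0.63 in cachectic and 0.93 in non-cachectic mice, beside 0.03 and 0.15 over all genes. The difference of the rFibcd1 effect between melanomas called 0 of the 7, beside 0.0223%, with 0 at an unadjusted p under 0.05, and was -0.53 for Ighm (adjusted p = 0.915), -0.46 for Igkc (interval -3.79 to 2.88, adjusted p = 0.949) and -0.33 for Cd79a (adjusted p = 0.945). For Ighm it was -0.058 without library 56, -0.93 without library 63 and -0.0072 with library state as a term.

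**Figure D5:**
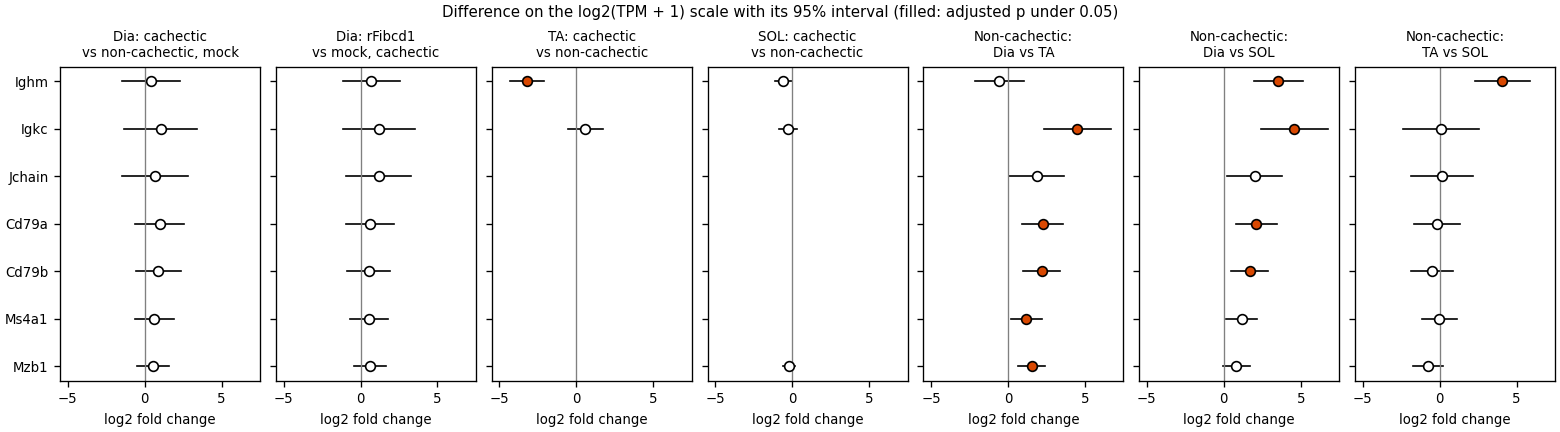
Difference on the log2(TPM + 1) scale with its 95% interval for each gene that was tested, in 7 comparisons; filled points have an adjusted p under 0.05. The diaphragm comparisons have intervals that all include 0, TA has Ighm at -3.21, and the diaphragm is above TA for Igkc by 4.50 in non-cachectic mice. Jchain, Cd79a, Cd79b and Ms4a1 passed the filter between muscles only through the diaphragm, and Mzb1 did not pass it in TA.

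Among the 7 genes, the TA gave the one clear difference between melanomas, which in TA cannot be told apart from library state. Ighm was at 158, 42.1, 90.8, 198 and 58.3 TPM in the non-cachectic libraries and at 28.2, 6.27, 3.64, 7.33 and 12.3 TPM in the cachectic ones. Every non-cachectic library was above every cachectic one, and the means were 109 ± 66.5 and 11.5 ± 9.81 TPM (SD, n = 5 each). Ighm fell by 3.21 on the log2 scale (SE 0.502, 95% interval -4.30 to -2.12, adjusted p = 0.000899), beside 3.78% of genes called lower, 60.2% called in either direction and 51.7% whose groups did not overlap. Leaving out any library gave -3.59 to -2.93, with adjusted p between 0.000355 and 0.00333.

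Igkc did not move with Ighm in TA. It was at 1.54, 1.81, 1.39, 5.65 and 0.457 TPM in non-cachectic and at 8.29, 0.813, 2.25, 1.04 and 9.83 TPM in cachectic libraries, ranges that overlapped. Its difference was 0.57 (SE 0.530, 95% interval -0.58 to 1.73, adjusted p = 0.347). It was 0.23 without library 10 of the cachectic and 0.89 without library 64 of the non-cachectic group. The Ighm over Igkc ratio was 23.2 to 127 (median 65.4) in non-cachectic and 1.25 to 7.72 (median 3.40) in cachectic TA, without overlap. Of 217 Igh rows, those that reached 1 TPM in any TA library were Ighm, Ighv1-5, Ighv9-3, Ighg1 and Ighv1-14, and the highest after Ighm was Ighv1-5 at 2.56 TPM. Summed Ighv stayed at 0.324 to 2.47 TPM in the non-cachectic TA, so the mu constant region was listed there with little light chain, few variable segments and, as given next, few receptor transcripts.

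The other 5 genes did not pass the expression filter in TA. Across all 20 limb libraries, Jchain was at most 0.481 TPM, Cd79a at most 0.684 TPM and listed at 0 in 1 library, and Ms4a1 at most 0.104 TPM and listed at 0 in 3. Cd79b reached 1 TPM in 1 of 20 libraries (1.64 TPM) and Mzb1 ranged from 0.126 to 2.43 TPM with 7 of 20 at 1 TPM or more. The receptor and secretion genes were thus low in the limb muscles of both melanomas.

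In SOL, Ighm was at 6.86, 4.77, 4.77, 3.54 and 3.46 TPM in non-cachectic and 1.72, 3.58, 1.19, 4.24 and 3.99 TPM in cachectic libraries. The cachectic libraries held the lowest values but the groups overlapped. Ighm differed by -0.58 (SE 0.255, 95% interval -1.14 to -0.02, adjusted p = 0.118), which did not pass, while its unadjusted p was under 0.05. Igkc was at 2.72, 1.55, 1.78, 1.38 and 0.953 TPM in non-cachectic and 1.05, 0.325, 1.76, 0.693 and 2.83 TPM in cachectic libraries, a difference of -0.27 (adjusted p = 0.497). Mzb1 was at 0.711, 0.969, 1.48, 1.56 and 2.05 TPM and at 0.557, 0.765, 1.31, 1.36 and 1.35 TPM in the same groups, a difference of -0.18 (adjusted p = 0.492). Leaving out any SOL library gave -0.70 to -0.39 for Ighm, -0.47 to -0.088 for Igkc and -0.29 to -0.078 for Mzb1. Of the 3 genes that passed the filter, 0 were called by limma or Dunn tests, beside 25.1% of genes.

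Whether the melanoma effect differed between muscles was tested by interaction contrasts. Between mock diaphragm and TA the Ighm effect differed by 3.62 (SE 1.10, 95% interval 1.39 to 5.85, adjusted p = 0.0472), 1 of 7 genes called beside 5.04% of genes. This call was narrow: it was lost when any of 29 of the 39 libraries was left out (values 3.23 to 4.02, adjusted p 0.0213 to 0.127), with no filter on low values (adjusted p = 0.0796) and after quantile normalization (adjusted p = 0.0640). Igkc did not differ detectably in effect (0.45, adjusted p = 0.876). Between diaphragm and SOL 0 of 7 were called, beside 2.52%, and 0 had an unadjusted p under 0.05 (Ighm 0.99, adjusted p = 0.721, and Igkc 1.29, adjusted p = 0.734). Leave-one-out fits of this contrast gave 0.60 to 1.39 for Ighm and 0.81 to 1.86 for Igkc. Between TA and SOL, 20.4% of genes were called. Ighm was not called (-2.63, 95% interval -5.18 to -0.08, adjusted p = 0.120) but had an unadjusted p under 0.05, and with column number as a replicate block it was called (-2.63, SE 1.01, adjusted p = 0.0362). The fit also held the mock diaphragm libraries. Its SE for Ighm was 1.26, beside 0.502 in the TA fit and 0.255 in the SOL fit, so the missing call does not show like effects in the limb muscles. Igkc was at 0.84 (adjusted p = 0.742). Jchain, Cd79a, Cd79b and Ms4a1 were too low in both limb muscles to be tested there, as was Mzb1 in TA. They passed the filter of these contrasts through other muscles, so nothing is read from their lack of a call.

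Levels in the 3 muscles were compared in non-cachectic mice, with mock-injected diaphragm. Jchain, Cd79a and Ms4a1 reached 1 TPM in no limb library and Cd79b in 1, so these 4 genes passed the filter only through the diaphragm libraries, and their values between muscles are given as a description. The same holds for Mzb1 against TA, where it reached 1 TPM in 1 of 10 libraries. Against TA, the diaphragm was higher for Igkc by 4.50 (SE 1.07, adjusted p = 0.00037). Ighm at -0.56 (interval -2.15 to 1.03, adjusted p = 0.526) was not distinguishable between the 2 muscles, with -0.96 to -0.29 in leave-one-out fits. The fitted difference was 2.25 for Cd79a (SE 0.651), 2.19 for Cd79b (SE 0.600), 1.86 for Jchain (SE 0.873), 1.54 for Mzb1 (SE 0.430) and 1.20 for Ms4a1 (SE 0.493). The fit called 5 of the 7 genes higher, 4 of them among those given as a description, beside 64% of all genes called higher in the diaphragm and 72.5% called at all, and nothing is read from that count.

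Against SOL, the diaphragm was higher for Ighm by 3.53 (SE 0.784, adjusted p = 0.000509) and for Igkc by 4.59 (SE 1.07, adjusted p = 0.000875). The Igkc call was lost with a Dunn test (adjusted p = 0.0547). Mzb1 did not pass (0.80, interval -0.07 to 1.67, adjusted p = 0.136). The fitted difference was 2.11 for Cd79a, 2.01 for Jchain, 1.68 for Cd79b and 1.17 for Ms4a1, the genes that passed the filter through the diaphragm alone. The fit called 4 of the 7 genes higher, Cd79a and Cd79b among them, beside 16.8% of all genes called higher and 38.8% called at all, and nothing is read from that count either. The non-cachectic TA was above SOL for Ighm by 4.08 (SE 0.889, 95% interval 2.28 to 5.89, adjusted p = 0.000147), 1 of 7 genes beside 5.63% called higher and 69.5% called at all. Igkc was not distinguishable between the limb muscles (0.09, interval -2.38 to 2.55, adjusted p = 0.961), nor was Mzb1 (-0.74, adjusted p = 0.173). The error of both came from the fit that also held the diaphragm libraries. By level, non-cachectic Ighm thus ran diaphragm and TA, without a detectable difference between them, then SOL, whereas Igkc ran diaphragm, then TA and SOL.

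Other genes of the pathway were read from lists. For the mock diaphragm, cachectic against non-cachectic, 0 of 9 tested immunoglobulin constant regions were called (median 1.06), 0 of 16 B-cell receptor and surface genes (median 0.63) and 0 of 5 B-cell transcription factors (median 0.61), beside a median of 0.20 over all genes. Plasma cell and antibody secretion genes had 3 of 8 called higher, close to the 30.9% of all genes called higher, namely Xbp1 (0.71, adjusted p = 0.000241), the secretory-cell regulator also active in other cells under protein-folding stress, Fkbp11 (0.58, adjusted p = 0.021), a folding enzyme, and Pim2 (0.39, adjusted p = 0.0315), a survival kinase. Of 11 genes for B-cell attraction and survival, 1 was higher, Cxcl13, the chemokine that draws B cells into follicles. It was at 1.16, 2.96 and 91.1 TPM (lowest, median, highest) in non-cachectic and 15.3, 70.9 and 422 TPM in cachectic mock libraries, ranges that overlapped, and differed by 3.48 (SE 0.930, adjusted p = 0.00471). No B-cell list gene was called for rFibcd1 against mock in either melanoma, and Fkbp11 (0.61, adjusted p = 0.0367) was called for the melanomas under rFibcd1.

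In TA, Cxcl13 was also higher with the cachectic melanoma, at 3.83 to 79.4 TPM against 0.0837 to 0.295 TPM, without overlap, while Ighm was lower there. It passed the filter only through the cachectic libraries, so its fitted difference of 3.45 (SE 0.604) is a description. Xbp1 (1.22), Pim2 (0.82) and Sdc1 (0.38), 3 of 4 tested plasma cell genes, were called higher, as were Tnfsf13 (0.55), a B-cell survival ligand, 1 of 1 tested receptor and surface genes (Cd38, 0.71, an enzyme of many cell types) and 1 tested transcription factor (Ebf1, 0.40, also made by stromal cells), beside 56.4% of all genes called higher in TA. In SOL, Xbp1 (0.72) and Fkbp11 (0.54), 2 of 4 tested plasma cell genes, were called higher, beside 17.5% of all genes. Cxcl13 in SOL was at 0.877 to 35.6 TPM in cachectic and 0.0490 to 0.286 TPM in non-cachectic libraries, without overlap, but did not pass the filter. Between non-cachectic diaphragm and TA, the fitted difference was 2.53 for Iglc2, 1.98 for Iglc1, 1.69 for Iglc3 and 1.30 for Ighd. No constant region of the list, and only Cd38 and Ebf1 of the surface genes and transcription factors, passed the filter in TA, so nothing is read from calls of these lists between muscles.

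Markers of other cell types were read beside these results, and their part in them was not tested. Over all 59 libraries, limb muscles included, the 12 T-cell genes differed in how often they were at 0. Cd8b1 was at 0 in 30, Cd3e in 17 and Cd3d in 14, but Trac in 4, Cd4 in 2 and Lck in 1. Over the 39 diaphragm libraries, summed T-cell genes ran from 1.44 to 121 TPM. They correlated with the 7 genes at 0.605 to 0.671, with group means removed here and in the next values. Summed leukocyte genes (18.6 to 403 TPM) correlated at 0.677 to 0.846, adipocyte genes (517 to 3599 TPM) at 0.698 to 0.815 and macrophage genes (247 to 3805 TPM) at 0.520 to 0.735. Genes of lymph node stroma and vessels (284 to 1313 TPM) correlated at -0.144 to -0.0184, red blood cell genes (446 to 14474 TPM) at 0.0927 to 0.208, mesothelial genes (52.6 to 287 TPM) at 0.275 to 0.468 and muscle genes at -0.545 to -0.371. The lymph node sum was almost wholly Ccl21a (mean 668 of 684 TPM in cachectic mock diaphragm). Its correlation therefore describes that gene and not the node vessel genes. Within groups, B-cell genes were thus higher in diaphragms with more leukocyte, adipocyte and macrophage transcripts and somewhat less muscle transcript. In the mock comparison between melanomas, 4 of 8 macrophage genes and 3 of 3 tested neutrophil genes were higher with the cachectic melanoma, beside 30.9% of all genes, and 0 of 8 T-cell and 0 of 5 leukocyte genes were called. In TA, where Ighm was lower with the cachectic melanoma, 7 of 7 tested macrophage genes, 2 of 2 neutrophil genes and 2 of 2 leukocyte genes were higher, beside 56.4% of all genes. Of 9 muscle genes there, 4 were lower (Mb, Acta1, Myh2 and Myh1) and 2 higher (Tnnt1 and Myh7), beside 3.78% and 56.4% of all genes, with a list median of 0.24. Summed macrophage genes there were at 54.1 to 379 TPM in cachectic and 32.8 to 67.8 TPM in non-cachectic libraries, and no T-cell gene passed the filter.

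Between muscles, mesothelial genes, which mark the lining of the body cavity, summed to 52.6 to 287 TPM in diaphragm and 0.219 to 5.58 TPM in limb libraries, and lymph node stroma genes to 284 to 1313 and 11.3 to 98.3 TPM. Within that last list, whose sum was almost wholly Ccl21a, the node vessel genes Madcam1 and Glycam1 were at 0 in 40 and 30 of 59 libraries. Fcamr was at 0 in 39 and Chst4 in 17. Summed leukocyte genes were at 2.59 to 6.03 TPM in non-cachectic TA, where Ighm was highest among limb muscles, and at 4.47 to 26.0 TPM in cachectic TA. The libraries with the most Ighm in the limb were therefore not those with the most leukocyte transcript.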

How the data were processed

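RNA-seq of 59 muscle samples was analysed. The authors deposited 1 table of TPM values, made with CLC Genomics Workbench from reads aligned to mouse GRCm38 (mm10 in the submitters' processing notes); the annotation is not given in the sources used here. Labels name a stranded kit and a HiSeq instrument, the methods another kit and a NovaSeq, and this was not resolved. TPM keeps no depth. Columns were placed in groups by name, and their numbers, used as library names, could not be tied to labelled replicates. Same-numbered libraries of 2 muscles deviated together from their group means in 28 of 30 pairs (correlation above 0.1, range 0.0101 to 0.502), in every pair of TA with SOL and of diaphragm with TA. Pairs with different numbers were not computed, so that count has no reference. From the same-numbered pairs, not from a label, the numbers were used as a block for those muscles, and no label ties them to mice. Separate animals per sample are stated by the labels only as biological replicates.

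Values were compared as log2(TPM + 1), a scale that understates changes of low genes, with limma 3.58.1 in R 4.3.3 (eBayes with trend, two-sided, Benjamini-Hochberg adjustment over all genes, called at adjusted p under 0.05), in place of the study's Kruskal-Wallis and Dunn tests, which were run as an alternative. Genes needed TPM of at least 1 in as many samples as the smallest group. The 39 diaphragm samples formed 1 fit, TA and SOL a fit each, and the 39 samples without rFibcd1 the fit between muscles. The code was tested on simulated data. Tables were made with Python 3.11.15, pandas 2.3.3 and numpy 2.4.6.

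The genes and lists were chosen with earlier results of these data known. Named genes were the 7 genes, the constant regions, called list genes (at most 3 per list) and the 5 nearest genes by correlation, of which 1 is not reported here. Lists covered constant regions, receptor and surface genes, transcription factors, plasma cell genes, attraction and survival genes, and markers of T cells, natural killer cells, lymph node stroma, macrophages, neutrophils, red blood cells, adipocytes, mesothelium, muscle and leukocytes. Alternatives were array weights, a pseudocount of 0.1, no filter or one at a mean TPM of 5, scaling by quantiles or by median ratios, Dunn tests, library state, the 2 groups alone, a replicate block and leaving out each library.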

Additional observations from a re-analysis of the deposited data

Results flagged for a closer look

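Of 56 groups of gene and condition tested for a library apart from the rest, 2 were found, where chance gives about 1 in 20. Jchain in the cachectic TA was at 0.424 TPM in library 10, and Cd79b in the non-cachectic SOL was at 1.64 TPM in library 63. The melanoma effect on Ighm differed between mock diaphragm and TA by 3.62 on the log2 scale in the interaction test (adjusted p = 0.0472, limma), a call that most leave-one-out fits lost.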

How the results depend on the processing

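Of 2073 alternative values for 47 single-gene results, 1965 kept direction and side of the threshold, 44 lost and 33 gained the call, and 31 changed sign, and the cause of these changes was not tested. Ighm in TA kept its call under every alternative that was run there (Dunn adjusted p = 0.0175). Library state was not among them, because it coincided with the melanoma in TA. The 5 diaphragm comparisons called 0 of 7 genes under every alternative. With no filter on low values, 1 gene was called in SOL (Ms4a1, -0.07, a gene at most at 0.104 TPM in limb muscle) and 0 in the diaphragm against TA difference, which also gave 0 after quantile normalization and 0 to 1 in leave-one-out fits. Genes called in non-cachectic diaphragm against TA fell to 3 at a mean TPM of 5 and 3 after quantile normalization, which lost Ms4a1 and Mzb1 (adjusted p = 0.165 and 0.0517). Against SOL they were 7 with array weights and 2 with Dunn tests, which lost Igkc, Cd79a and Cd79b (adjusted p = 0.0547, 0.108 and 0.191) and gained Jchain, and TA against SOL gave 2 with a pseudocount of 0.1 and 2 with array weights.

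Sign changes were in results that did not pass the test. In the mock diaphragm, array weights gave -0.016 for Ighm and -0.052 for Jchain, and library state as a term gave -0.40 for Ighm, -0.27 for Jchain, -0.055 for Cd79b, -0.10 for Ms4a1 and -0.024 for Mzb1. Between melanomas under rFibcd1, array weights gave Ighm 0.42, high-state libraries gave Igkc -0.13, and leave-one-out fits gave Ighm -0.46 to 0.35. For the difference of rFibcd1 effects, array weights gave 0.43 for Ighm, 0.91 for Igkc and 0.073 for Cd79a, the state term 0.17 for Igkc and 0.29 for Cd79a, and leave-one-out fits -1.03 to 0.032 for Igkc and -0.62 to 0.12 for Cd79a. Igkc in the diaphragm against TA difference was -0.37 with array weights and -0.026 to 1.02 in leave-one-out fits, and Igkc in TA against SOL was -0.23 to 0.32.

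No paired analysis was possible within a muscle because column numbers could not be tied to labelled replicates. Between muscles, column number as a replicate block called 1 gene in the TA against SOL difference (Ighm, adjusted p = 0.0362), gave non-cachectic diaphragm adjusted p = 0.0334 for Jchain against TA and 0.0344 and 0.0282 for Jchain and Ms4a1 against SOL, genes that passed the filter only through the diaphragm, changed no other call, and turned Igkc in the diaphragm against TA difference to -0.00314.

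Depth is unknown, so values under 1 TPM, as for most of these genes in limb muscle, have no known counting error.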

Other observations

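Genes nearest to Ighm within single muscles, with group means removed, were looked for after the values were seen. In the 10 TA libraries they were Irgm2 (r = 0.942), H2-M6-ps (0.896), Samsn1 (0.862), Cgref1 (0.859) and Igtp (0.855), of which Irgm2 and Igtp are interferon-induced GTPase genes. In the 39 diaphragm libraries they were Iglc3 (0.970), Iglc2 (0.954), Igkc (0.953), Pou2af1 (0.947) and Jchain (0.946), all immunoglobulin or B-cell genes. In the 10 SOL libraries they were Vit (0.929), Kat6b (0.904), Scg3 (0.896), Tnc (0.894) and Hpgd (0.894). These are descriptions over 14043 genes or more and 10 libraries per limb muscle, with no test.

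Ighg2c, also singled out after its values were seen, was above 0 in all 10 non-cachectic limb libraries, at 0.145 to 0.877 TPM in TA and 0.0827 to 0.171 TPM in SOL. In cachectic limb libraries it was at 0 to 0.0848 TPM in TA and 0 to 0.0464 TPM in SOL, below the non-cachectic range of the same muscle. These levels are under 1 TPM and were not tested.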
